A study of Mus musculus with 16 samples.

Results

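The comparison described here is that of 4 undecanal arrays with 4 vehicle arrays, all titled GFP-, from a study of mouse olfactory mucosa. These are 8 of the 16 arrays of the series, chosen by their titles alone. The mice were C57BL/6 animals of both sexes, aged 7 to 12 weeks, and every mouse of both groups carried the S100a5-tauGFP reporter, in which S100a5 drives a green fluorescent protein joined to tau. Each mouse lived in a clean air chamber for 40 h with 3.1 L of air per min, and from 26 h on it received 10 s pulses every 20 min. The undecanal group received undecanal, a fatty aldehyde odorant, and the vehicle group received filtered air. The mucosa of 3 mice was pooled for each replicate, dissociated and sorted on GFP, so an array reads a pool of sorted cells and not 1 animal. The labels' 24 mice make 8 pools, and each pool gave an array titled GFP- and an array titled GFP+. Both fractions come from the same animals.

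Titles and sample characteristics give opposite GFP signs for every array, and the arrays titled GFP- are the GFP+ samples in the characteristics. S100a5 mRNA was higher in the titled GFP- fraction than in the titled GFP+ fraction of the same pool, for 8 of 8 pools. The mean difference between the fractions was 0.91 on the log2 scale in vehicle pools and 0.97 in undecanal pools. The name titled GFP- is kept throughout. The sign does not alter the direction of a difference between undecanal and vehicle within these 8 arrays.

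An olfactory sensory neuron generally expresses 1 allele of 1 odorant receptor gene. Odorant binding activates the G protein Golf and adenylyl cyclase, cyclic AMP opens a cyclic nucleotide-gated channel, and a chloride current follows. Transcription of some genes, among them S100a5 and several adhesion molecules that sort olfactory axons, depends on that activity. The assay asks which receptor mRNAs are enriched among cells bearing the reporter after exposure to an odorant. Aliphatic aldehydes are a classical ligand class for some odorant receptors, and the nasal mucosa also holds enzymes that oxidise them.

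The values are log2 probe set summaries, on which a difference of 1 is a 2-fold difference. Of 22206 probe sets tested, 13586 had a group mean above a background level of 4.80 in at least 1 of the 2 groups, and so did 969 of the 1091 odorant receptor probe sets. That level is exceeded by 5% of the group means of 358 probe sets for vomeronasal and bitter taste receptors, families that these neurons are not known for. The 8 arrays had medians between 5.892 and 5.977, and arrays of a group correlated with r of 0.989 to 0.993 over all probe sets. Arrays of different agents correlated with r of 0.989 to 0.994, much the same range. Mature olfactory neuron genes were above background in both groups. The mean level over 15 of 15 measured marker genes was 16.35 to 16.63 with undecanal and 16.44 to 16.61 with vehicle. Omp, a marker of mature neurons, read 18.95, 18.83, 18.83 and 18.78 in undecanal replicates 1 to 4 and 18.87, 18.71, 18.87 and 18.87 in vehicle replicates 1 to 4. The difference in Omp was 0.02 (SE 0.110), with a 95% confidence interval of -0.21 to 0.25.

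No gene passed the test between undecanal and vehicle in these arrays. With the Benjamini-Hochberg adjusted p of limma under 0.05, 0 of 22206 probe sets (0%) were called. At an unadjusted limma p under 0.05 there were 914 probe sets (4.12%), of which 473 (2.13%) were higher and 441 (1.99%) lower with undecanal. With each array centred on its receptors above background, 543 were higher and 87 lower. The groups did not overlap for 489 probe sets (2.20%), with undecanal higher for 262 (1.18%) and lower for 227 (1.02%), and for 279 with receptor centring. Differences were small for most genes: over all probe sets the median was 0.004, and the central 80% ran from -0.26 to 0.27. The median 95% confidence interval reached 0.42 to either side of the estimate. Every single gene value below therefore describes these arrays, and none is a call.

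Among the genes that activity regulates in olfactory neurons, Pcdh10 stood at the head of the list by p. Pcdh10 is a protocadherin, a homophilic adhesion molecule that acts in axon sorting and whose transcription depends on neuronal activity. Undecanal replicates 1 to 4 read 9.84, 10.41, 9.94 and 10.25 for Pcdh10, and vehicle replicates 1 to 4 read 8.56, 8.96, 8.97 and 8.54. Every undecanal array was above every vehicle array, with a gap of 0.87 between the groups. The means were 10.11 ± 0.26 (SD, n = 4) and 8.76 ± 0.24 (SD, n = 4), a difference of 1.35 (SE 0.218) or 2.55-fold, with a 95% confidence interval of 0.89 to 1.81 and a limma adjusted p of 0.179. Over 18 alternative settings the difference was 1.25 to 1.45 and the limma adjusted p 0.0506 to 0.541.

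The same pools showed a difference of like sign in the other sort fraction. In arrays titled GFP+, undecanal replicates 1 to 4 read 9.01, 8.82, 9.24 and 9.75 for Pcdh10 and vehicle replicates 1 to 4 read 7.36, 7.33, 7.68 and 6.80, a difference of 1.91. There Pcdh10 passed, as the 1 call among 22206 (0.00450%), and 603 probe sets (2.72%) had an unadjusted limma p under 0.05. The difference in arrays titled GFP- minus that in arrays titled GFP+ was -0.56 (SE 0.308, limma adjusted p = 1), which did not pass. Both sort fractions of a pool come from the same mice, and the fit treats them as independent.

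**Figure D1:**
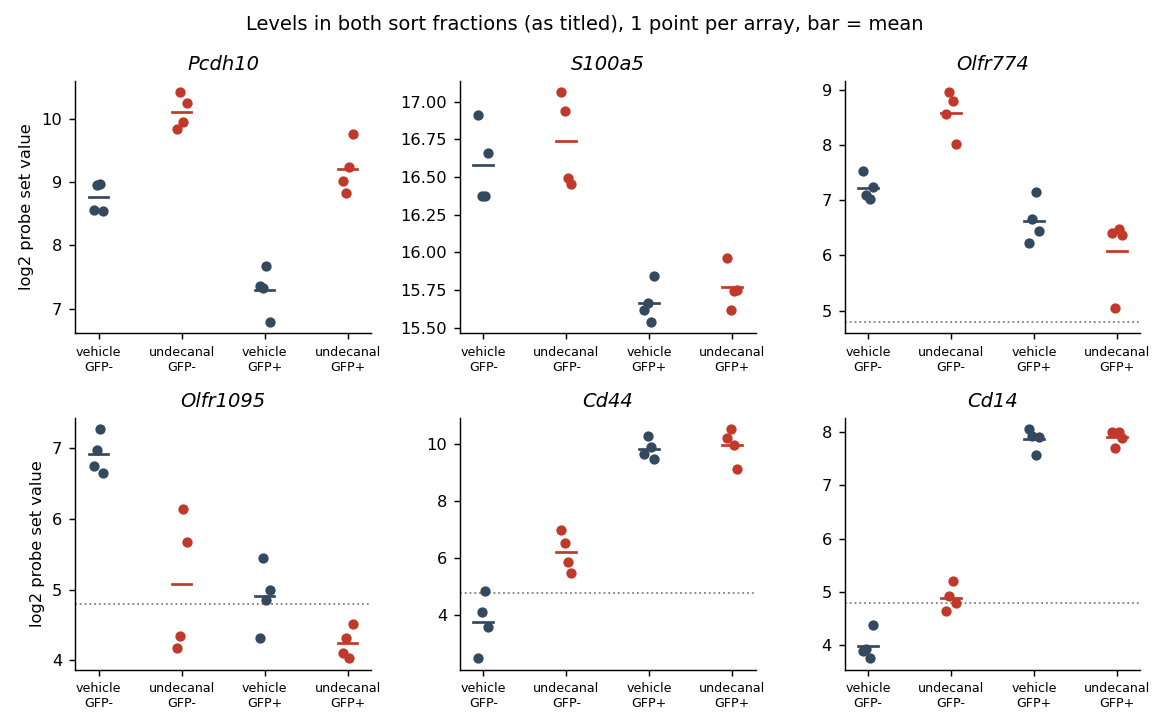
Expression (log2 probe set value) of 6 genes in the 4 groups of 4 arrays, 1 point per array with the group mean as a bar, vehicle in blue and undecanal in red, fractions as titled; each panel has its own axis range. Pcdh10 reads higher with undecanal in both fractions, while Olfr774, Cd44 and Cd14 do so in arrays titled GFP- and the dotted line marks the background level of 4.80.

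The upstream windows of Pcdh10 and of S100a5, the reporter's own gene, are shown because both genes are known to follow neuronal activity, and cyclic AMP acts on transcription through the cyclic AMP response element TGACGTCA and its core TGACG. Each window is the 250 bases before the RefSeq start on GRCm38.p6, both genes lying on chromosome 3 and the plus strand, at chr3:45378148-45378397 for Pcdh10 and chr3:90608272-90608521 for S100a5. Capitals mark TGACG on either strand.
Pcdh10: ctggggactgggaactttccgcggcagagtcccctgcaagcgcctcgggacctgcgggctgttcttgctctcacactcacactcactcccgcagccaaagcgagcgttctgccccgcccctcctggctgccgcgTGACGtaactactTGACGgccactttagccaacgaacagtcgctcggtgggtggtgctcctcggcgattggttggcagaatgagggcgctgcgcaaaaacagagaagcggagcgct
S100a5: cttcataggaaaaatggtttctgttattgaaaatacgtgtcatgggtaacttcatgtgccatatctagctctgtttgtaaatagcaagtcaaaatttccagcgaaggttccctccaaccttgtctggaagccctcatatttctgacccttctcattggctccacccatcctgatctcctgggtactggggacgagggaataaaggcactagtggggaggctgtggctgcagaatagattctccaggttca
The Pcdh10 window holds 2 cores and 0 full elements, and the S100a5 window holds 0 of either. The windows of Lrrc3b, Pcp4l1 and Kirrel2, other genes known to be raised by activity, also hold 0 of either. For comparison, 17.9% of 27025 windows of the same length before RefSeq genes hold the core and 1.62% the full element, counting both strands; a full element also contains the core. A match is a stretch of letters and no evidence of binding.

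S100a5 itself did not differ beyond the spread between arrays. It read 17.06, 16.94, 16.49 and 16.45 in undecanal replicates 1 to 4 and 16.91, 16.37, 16.37 and 16.66 in vehicle replicates 1 to 4. The groups overlapped, and the difference was 0.16 (SE 0.167), with a 95% confidence interval of -0.20 to 0.51. Of the 7 measured genes listed as raised by activity, 5 had a positive difference and the median was 0.08, against 0.004 over all probe sets. Lrrc3b, a membrane protein gene of this list, read 13.80, 13.89, 14.06 and 13.78 with undecanal against 13.68, 13.27, 12.51 and 14.35 with vehicle, a difference of 0.43 (SE 0.362). Its vehicle arrays spanned the undecanal range. The adhesion molecule genes Kirrel2 and Cntn4 both differed by 0.08, Pcp4l1 by -0.05 and the protocadherin Pcdh19 by -0.12. Without Pcdh10, the mean level of the remaining 6 genes was 14.46 to 14.71 with undecanal and 14.17 to 14.77 with vehicle, and these ranges overlap.

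Genes known to be lowered by activity showed no opposite pattern beyond the spread. Of the 4 measured, 3 were negative, with a median of -0.08 that turned to 0.01 when arrays were centred on the receptor median. Pcdh17, a protocadherin, differed by -0.41 (SE 0.271), Efna5 by -0.12, Epha5 by -0.04 and the adhesion molecule Kirrel3 by 0.09. Immediate early genes follow a stimulus within minutes to hours. Of the 22 measured, 15 had a positive difference, beside 11329 of all 22206 probe sets. Their median was 0.16, and 0 of 22 had an unadjusted limma p under 0.05, beside 4.12% of all probe sets. The orphan nuclear receptors were at the upper end, with 0.54 for Nr4a1, 0.64 for Nr4a2 and 0.79 for Nr4a3, the last with both group means below background. Nr4a2 read 4.01, 5.76, 4.77 and 5.37 with undecanal and 4.12, 4.38, 5.20 and 3.63 with vehicle, so the groups overlapped. Fos and Jun, the subunits of AP-1, both differed by -0.30, and Egr1 by -0.09. The mean level over the 22 genes was 7.12 to 7.31 with undecanal and 6.94 to 7.14 with vehicle.

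As a class, odorant receptors had a wider spread of differences than other named genes. In bulk samples of sorted cells, fewer neurons of a receptor and less mRNA per neuron cannot be told apart. Of 1091 receptors, 17 differed by more than 1 on the log2 scale, 5 upward and 12 downward, while of 18123 other named genes 5 did. The spread between arrays was also wider: the median 95% confidence interval reached 0.67 to either side for receptors and 0.40 for other named genes. At an unadjusted limma p under 0.05 there were 68 receptors (6.23%) against 4.12% of all probe sets, and 7.54% of the vomeronasal and bitter receptors that set the background level. For 19 receptors the groups did not overlap, 7 higher and 12 lower, a share of 1.74% against 2.20% of all probe sets. Neither share was tested against that of other genes.

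**Figure D2:**
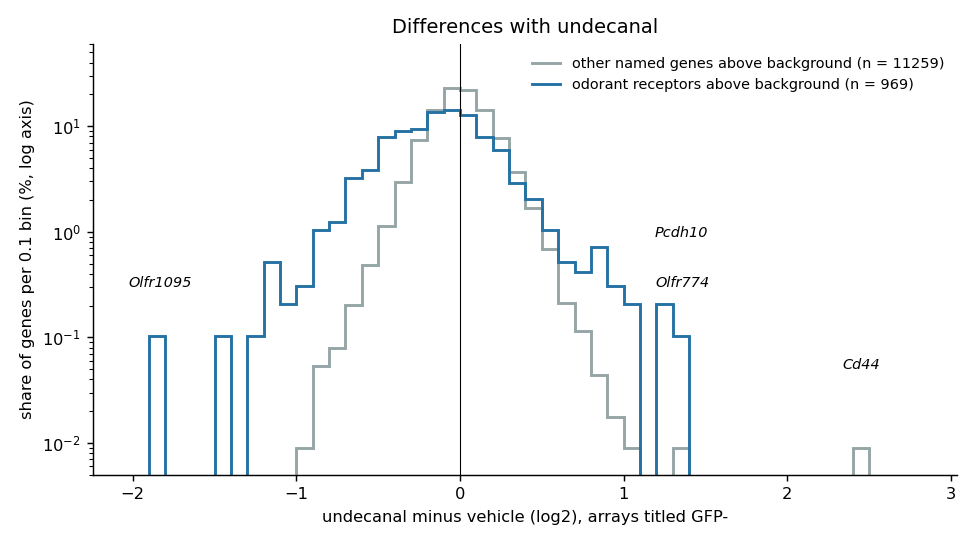
Share of genes (%, log axis) per bin of 0.1 in the difference undecanal minus vehicle (log2) in arrays titled GFP-, for 969 odorant receptors and 11259 other named genes above background. The receptor curve is wider on both sides and its middle lies to the left of 0, with Olfr1095 at its left end and Olfr774 at its right end; Cd44 lies outside both.

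More receptors read lower than higher with undecanal, and how many depended on the scaling and on single arrays. The median receptor differed by -0.094, with 400 receptors positive and 691 negative, and centring each array on its receptors above background moved that median to 0.003 and the median of all probe sets to 0.101. Of the 68 receptors at an unadjusted limma p under 0.05, 15 were higher (22.1%) and 53 lower. With receptor centring, which sets the receptor median near 0 by construction, 24 were higher (45.3%) and 29 lower. Without undecanal replicate 4 the counts were 27 higher (42.2%) and 37 lower, and without vehicle replicate 1 they were 21 and 40. Without vehicle replicate 4 they were 16 and 84, and without undecanal replicate 1 they were 11 and 68.

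The arrays were able to bound an increase for most receptors. Of the 969 receptors above background, 829 had a 95% confidence interval that ended below 1, the value that a 2-fold higher level would give. For 574 of them the interval lay between -1 and 1 on both sides.

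Among the 6 receptors that read higher with undecanal by the smallest p, Olfr774 came first. Olfr774 is a receptor gene of chromosome 10, also named MOR111-11. It read 8.57, 8.96, 8.80 and 8.02 in undecanal replicates 1 to 4 and 7.53, 7.09, 7.03 and 7.24 in vehicle replicates 1 to 4. The groups did not overlap, and a gap of 0.49 separated them. The means were 8.59 ± 0.41 (SD, n = 4) and 7.22 ± 0.23 (SD, n = 4), a difference of 1.36 (SE 0.293) or 2.57-fold, with a 95% confidence interval of 0.75 to 1.98 and a limma adjusted p of 0.604. The range over 18 alternative settings was 1.24 to 1.55, with limma adjusted p from 0.0979 to 1.

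In arrays titled GFP+ of the same pools Olfr774 did not show this difference. It read 6.40, 5.04, 6.49 and 6.37 with undecanal against 6.22, 6.67, 7.16 and 6.44 with vehicle there, a difference of -0.55 with overlapping groups. The difference between the fractions, titled GFP- over titled GFP+, was 0.60 in vehicle pools and 2.51 in undecanal pools. Their change, the interaction, was 1.91 (SE 0.414), with a limma unadjusted p of 0.000237 and an adjusted p of 1 over all probe sets, and 0 of 22206 interactions (0%) passed. At an unadjusted limma p under 0.05, 584 interactions (2.63%) were counted. Olfr774 was named for its difference in arrays titled GFP-, which is a term of the interaction. That choice favours a small unadjusted interaction p.

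**Figure D3:**
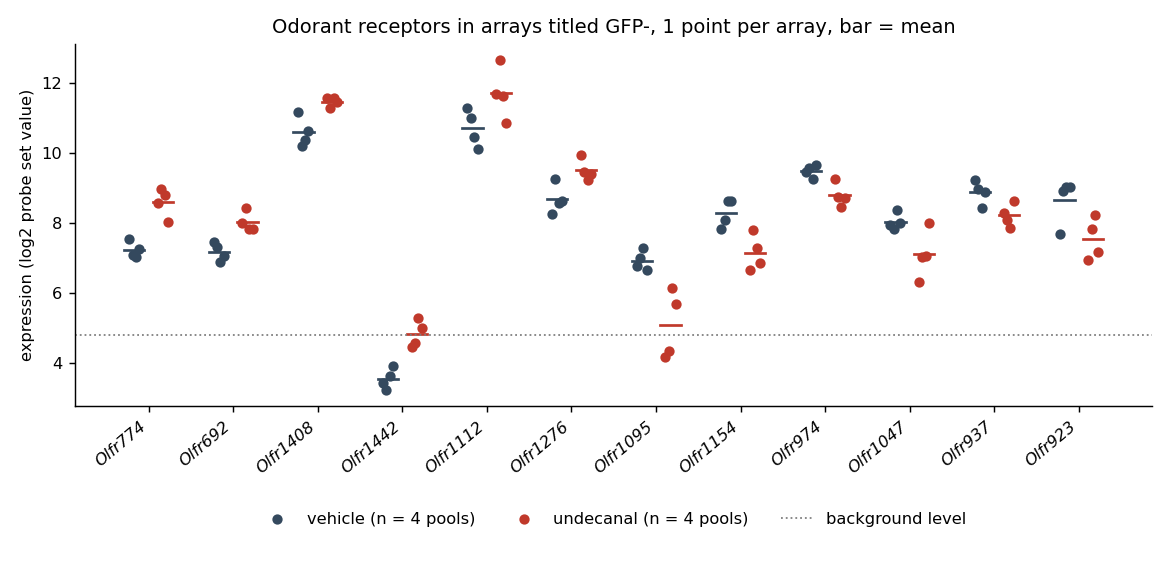
Expression (log2 probe set value) of the 6 receptors with positive and the 6 with negative difference of smallest p, 1 point per array titled GFP-, with group means as bars and the background level of 4.80 as a dotted line. Olfr774, Olfr692, Olfr1408 and Olfr1442 have all undecanal points above the vehicle points, and Olfr1095, Olfr1154 and Olfr974 have all below.

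Close relatives of Olfr774 were looked at because probe sets of near-identical receptors can share signal. The MOR111 family has 7 other measured members, all on chromosome 10, and 6 of 7 had a positive difference, with a median of 0.30 (0.298 to 0.397 under 4 other scalings). Olfr803 differed by 0.77 (SE 0.442), Olfr802 by 0.73 (SE 0.355), Olfr776 by 0.36 and Olfr786 by 0.30. Olfr788 and Olfr787 were at 0.09 and 0.08, and Olfr775 at -0.05. None of the 7 had an unadjusted limma p under 0.05 and for each of them the groups overlapped. The same 7 receptors differed by -0.83 to 0.01 in arrays titled GFP+. Olfr775 and Olfr776 are also the neighbours of Olfr774 on one side. The neighbours on the other side, Olfr773 and Olfr772 of the MOR114 family, differed by -1.01 (SE 0.363, limma unadjusted p = 0.0125) and -1.12 (SE 0.408, limma unadjusted p = 0.014), both with overlapping groups.

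Olfr692 and Olfr1408 also showed no overlap. Olfr692, a class I receptor of chromosome 7 also named MOR36-1, read 7.98, 8.41, 7.81 and 7.83 with undecanal and 7.45, 7.31, 6.88 and 7.06 with vehicle. Its difference was 0.83 (SE 0.196) or 1.78-fold, with a limma adjusted p of 0.814. The nearest 4 receptors on the chromosome differed by -0.15 to 0.04, so the higher level was not shared by its neighbours. Class I receptors are the family kept from fish to mammals, and many of them respond to acids.

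Olfr1408, a receptor gene of chromosome 1 also named MOR267-4, read 11.55, 11.26, 11.56 and 11.45 with undecanal and 11.17, 10.20, 10.35 and 10.63 with vehicle. The gap between the groups was only 0.09, set by vehicle replicate 1. The difference was 0.87 (SE 0.205) or 1.82-fold, with a limma adjusted p of 0.814. Among the 13 other members of MOR267, 10 had a positive difference and the median was 0.14, with Olfr218 highest at 0.39 (SE 0.196) and Olfr248 lowest at -0.23. The titled GFP+ arrays gave 0.33 for Olfr1408 and 0.39 for Olfr692, and neither interaction passed.

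The other 3 receptors of this group were less separated or dimmer. Olfr1442 of chromosome 19 read 4.44, 4.57, 5.27 and 4.99 with undecanal and 3.43, 3.23, 3.62 and 3.90 with vehicle. Its difference of 1.27 (SE 0.357) is between a mean at the background level and one below it. In arrays titled GFP+ Olfr1442 averaged 8.66 with undecanal and 8.20 with vehicle. Olfr1112 of chromosome 2 read 11.68, 12.63, 11.61 and 10.84 against 11.28, 10.99, 10.44 and 10.11, a difference of 0.98 (SE 0.302) with overlap. Olfr1276, also of chromosome 2, read 9.92, 9.44, 9.21 and 9.40 against 8.24, 9.25, 8.57 and 8.63, a difference of 0.82 (SE 0.298), with 1 vehicle array inside the undecanal range. Each of the 3 had a limma adjusted p of 1. Most other members of their families read lower, as did most receptors. Positive differences were found for 13 of 30 other members of MOR202 (Olfr1442), 4 of 16 of MOR264 (Olfr1112) and 4 of 21 of MOR245 (Olfr1276). Over all receptors 400 of 1091 were positive.

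Olfr1095 had the smallest p among receptors above background that read lower with undecanal. It is a chromosome 2 gene, also named MOR179-1, and read 4.18, 4.34, 6.14 and 5.68 in undecanal replicates 1 to 4 against 6.75, 6.98, 7.27 and 6.65 in vehicle replicates 1 to 4. Undecanal replicates 1 and 2 were below background and the other undecanal arrays above it, so the spread was wide. The means were 5.09 ± 0.97 (SD, n = 4) and 6.91 ± 0.28 (SD, n = 4), a difference of -1.83 (SE 0.351), 3.55-fold lower, with a limma adjusted p of 0.303. Its difference in arrays titled GFP+ was -0.66. The 6 other MOR179 receptors, all on chromosome 2, ranged from -0.43 to 0.49 with a median of -0.20, close to the -0.169 over all 284 receptors of that chromosome.

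Olfr1154 and Olfr974 followed, each with groups that missed each other by 0.01. Olfr1154 of chromosome 2 read 6.64, 7.80, 7.27 and 6.85 with undecanal and 7.81, 8.08, 8.63 and 8.62 with vehicle, a difference of -1.15 (SE 0.241, limma adjusted p = 0.562). Olfr974 of chromosome 9 read 9.25, 8.74, 8.46 and 8.70 against 9.44, 9.56, 9.26 and 9.65, a difference of -0.69 (SE 0.191, limma adjusted p = 1). These receptors differed in arrays titled GFP+ by -0.10 and 0.00, and neither interaction passed. Olfr1047 (-0.93), Olfr937 (-0.65) and Olfr923 (-1.13) had overlapping groups. Olfr923 read 7.68 in vehicle replicate 1 and 8.90 to 9.03 in the other vehicle arrays, and its undecanal arrays read 6.93 to 8.21. Olfr974 and Olfr937 belong to MOR171, whose members ranged from -0.69 to 1.03 in Olfr930.

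Olfr1535 of chromosome 13 read 3.53, 3.25, 2.99 and 2.85 with undecanal and 4.27, 4.00, 4.55 and 4.11 with vehicle, a difference of -1.08 (SE 0.189, limma adjusted p = 0.179). All 8 arrays were below background, where a value may hold little signal of the gene. Olfr1535, Olfr1095, Pcdh10 and Cd44 were among the genes that earlier results of these data had shown.

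Receptor genes lie in clusters on many chromosomes. The median difference was negative for 14 of the 17 chromosomes with measured receptors, and for 6 of them when arrays were centred on the receptor median. It was positive for chromosome 4 (0.038, 24 receptors), chromosome 8 (0.249, 5 of 5 positive) and chromosome 3 (0.087, 2 receptors) under every scaling tried. Chromosome 2, with 284 receptors, had a median of -0.169 and 202 negative differences, and stayed negative at -0.072 with receptor centring. Chromosome 7, with 232, had -0.076, and chromosome 9, with 132, had -0.089, and both turned positive with that centring (0.021 and 0.008). The share at an unadjusted limma p under 0.05 was 6.23% over all receptors and 4.12% over all probe sets. It was 9.09% on chromosome 9 (2 higher and 10 lower) and 12.2% on chromosome 17 (1 higher and 5 lower). On chromosome 13 it was 16.7%, 2 of 12 receptors, both lower, among them Olfr1535 with all arrays below background. It was 1.25% on chromosome 11 (80 receptors) and 0% on chromosomes 4, 8, 15 and X. These shares were not tested against each other.

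Receptors with published ligands gave no member at an unadjusted limma p under 0.05 among 11 measured, with a median of 0.04. Olfr2, the I7 receptor known for aliphatic aldehydes such as octanal, read 5.29, 5.12, 4.25 and 4.89 with undecanal and 5.05, 6.10, 5.39 and 4.62 with vehicle. Its difference was -0.40 (SE 0.286), the groups overlapped, and its level was near background. Olfr1019, known for the fox odour component trimethylthiazoline, read 7.88, 7.77, 7.97 and 5.79 against 8.42, 8.34, 9.18 and 7.04, a difference of -0.89 (SE 0.433). Replicate 4 was lowest in both groups. Olfr16, the MOR23 receptor for lyral, differed by -0.31. Trace amine-associated receptors, a separate family for volatile amines, had 11 of 14 negative differences with a median of -0.20. Taar7d had the smallest p of them, with a difference of -0.71 (SE 0.271), while Taar9 and Taar8b were both at 0.39.

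The machinery that carries the odorant signal differed little. Of 17 measured genes of olfactory signal transduction, 6 were positive and 11 negative, with a median of -0.05, and 0 had an unadjusted limma p under 0.05. The largest negative difference was -0.20, for the phosphodiesterase Pde4a, and the largest positive was 0.36, for the channel subunit Cngb1 at a level near background. Gnal, the alpha subunit of Golf, differed by -0.10 (SE 0.124), the adenylyl cyclase Adcy3 by -0.13 (SE 0.119), the channel subunit Cnga2 by 0.14 (SE 0.135) and the chloride channel Ano2 by -0.14 (SE 0.113). The mean level over the list was 13.94 to 14.11 with undecanal and 13.96 to 14.11 with vehicle. Genes of receptor trafficking and choice ranged from -0.19 for Rtp1, a chaperone that brings receptors to the membrane, to 0.35 for Reep1, with a median of -0.03 over 16 genes. The signs of both medians turned with receptor centring.

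Of 17 axon sorting genes, which guide receptor-specific axons to glomeruli, 8 were positive and 9 negative. Sema3f, a repellent semaphorin, read 8.83, 9.28, 9.05 and 9.05 with undecanal and 8.81, 8.36, 8.82 and 8.64 with vehicle. The groups missed each other by 0.01, and the difference was 0.39 (SE 0.140, limma adjusted p = 1). Plxna4, a semaphorin coreceptor, differed by -0.38 (SE 0.179), Sema7a by 0.28 and Nrp2, the receptor for Sema3f, by -0.33. Sema3f was the 1 of 17 at an unadjusted limma p under 0.05, a share near the 4.12% of all probe sets, and the median of -0.06 turned positive with receptor centring.

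**Figure D4:**
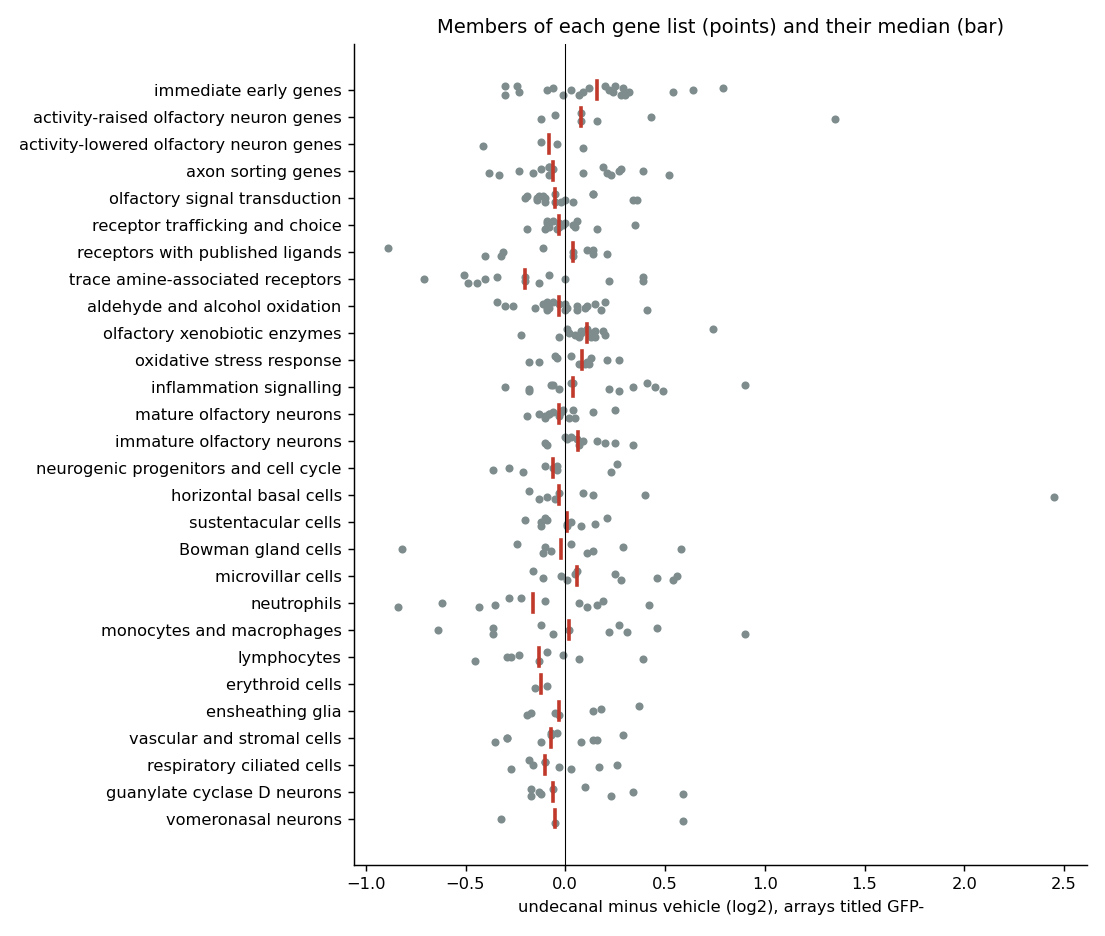
Difference undecanal minus vehicle (log2) in arrays titled GFP- for each measured member (points) of 28 gene lists, with the list median as a red bar. Medians lie between -0.20 and 0.16, and the points far from their list are Pcdh10 (1.35) among activity-raised genes and Cd44 (2.45) among basal cell genes.

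Outside the receptors, Cd44 had the widest difference of all named genes above background. Cd44 is a hyaluronan receptor of basal epithelial cells and of many leukocytes. It read 6.98, 6.54, 5.89 and 5.48 in undecanal replicates 1 to 4 and 2.50, 4.13, 4.87 and 3.59 in vehicle replicates 1 to 4. No undecanal array was below 5.48, while 3 of 4 vehicle arrays and the vehicle mean of 3.77 ± 1.00 (SD, n = 4) were below background. The difference of 2.45 (SE 0.423, limma adjusted p = 0.179) thus starts from a level with little measured signal. Cd44 was abundant in both groups of arrays titled GFP+ and differed there by 0.13. The interaction was 2.32, with a limma adjusted p of 1.

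Markers of the cells that are known to carry Cd44 were read beside it. Of the 8 other horizontal basal cell genes, 0 were above background. Their mean levels were 3.42 to 3.76 in undecanal arrays and 3.45 to 3.63 in vehicle arrays. The keratins Krt5 and Krt14 differed by -0.05 and -0.09. In arrays titled GFP+ the list, Cd44 included, averaged only 4.28, although Cd44 was abundant there. Basal cells as a source of Cd44 were not tested. The 12 neutrophil genes, 9 of them above background, had mean levels of 4.57 to 5.05 with undecanal and 4.76 to 5.25 with vehicle, and 12.86 on average in arrays titled GFP+. Of these, 5 were positive and 7 negative, with S100a8 at -0.84 (SE 0.281) and Retnlg at -0.43 (SE 0.195), both with an undecanal mean below background. The 9 measured lymphocyte genes had mean levels of 4.10 to 4.39 and 4.24 to 4.56, and 6.02 on average in arrays titled GFP+. For each of these lists the mean levels of the groups overlapped.

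Cd14, the monocyte coreceptor for lipopolysaccharide, read 4.65, 4.93, 5.20 and 4.80 with undecanal and 3.89, 3.93, 3.76 and 4.39 with vehicle. The groups did not overlap, but all vehicle arrays were below background and the undecanal mean was at 4.89. The difference of 0.90 (SE 0.166, limma adjusted p = 0.234) is thus near the limit of the arrays. In arrays titled GFP+ Cd14 averaged 7.90 with undecanal and 7.86 with vehicle. The 10 other monocyte and macrophage genes had mean levels of 4.13 to 4.66 with undecanal and 4.16 to 4.90 with vehicle, with 5 of 10 positive. Adgre1, which encodes the macrophage antigen F4/80, differed by -0.64 (SE 0.191), with all 4 undecanal arrays below background.

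**Figure D5:**
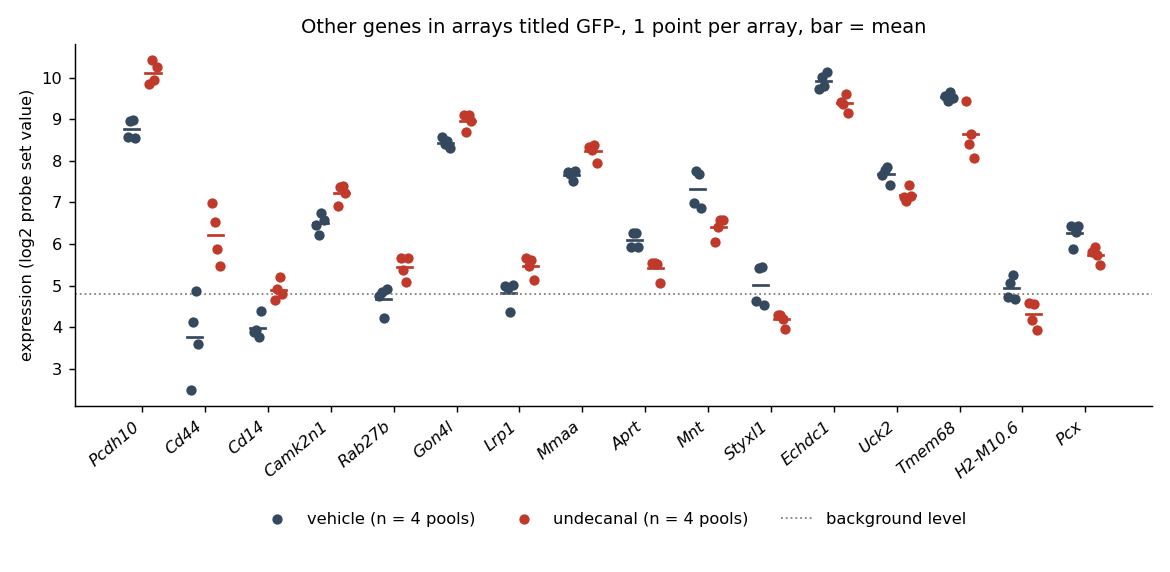
Expression (log2 probe set value) of the 8 other named genes with positive and the 8 with negative difference of smallest p, 1 point per array titled GFP-, group means as bars, background level of 4.80 dotted. Pcdh10 and Cd44 show the widest separation, and in Uck2, Tmem68 and Pcx the groups overlap.

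The remaining genes with the smallest p had smaller differences. Camk2n1, an inhibitor of the calcium and calmodulin dependent kinase II, read 6.92, 7.37, 7.40 and 7.22 with undecanal and 6.46, 6.21, 6.74 and 6.57 with vehicle, a difference of 0.73 (SE 0.176, limma adjusted p = 0.91). Rab27b, a GTPase of vesicle secretion whose vehicle mean of 4.69 was below background, differed by 0.76, and Lrp1, an endocytic receptor, by 0.63. Gon4l, a nuclear regulator, differed by 0.52 and Mmaa, a mitochondrial protein of vitamin B12 metabolism, by 0.56. In these 5 genes every undecanal array was above every vehicle array, as in 1.18% of all probe sets. Their choice by smallest p favours such a gap. The differences of Gon4l and Mmaa in arrays titled GFP+ were -0.23 and -0.20, and neither interaction passed.

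Other genes read lower with undecanal. Aprt, the adenine salvage enzyme, read 5.55, 5.55, 5.53 and 5.07 with undecanal and 5.92, 6.26, 6.27 and 5.94 with vehicle, a difference of -0.67 (SE 0.156, limma adjusted p = 0.756). Mnt, a transcriptional repressor of the MYC network, differed by -0.92, and Echdc1, a decarboxylase of fatty acid metabolism, by -0.54. Styxl1 (-0.82) and H2-M10.6 (-0.62), a nonclassical class I histocompatibility gene, had an undecanal mean below background. For these 5 genes, also chosen by smallest p, the groups did not overlap, beside 1.02% of all probe sets with undecanal lower. Uck2, a uridine and cytidine kinase, differed by -0.50, Tmem68 by -0.89 and the pyruvate carboxylase gene Pcx by -0.52, each with touching or overlapping groups.

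Genes that could handle the aldehyde itself did not differ beyond the spread. Of 23 measured genes of aldehyde and alcohol oxidation, 12 were above background, 10 had a positive difference and 13 a negative one, with a median of -0.03 that turned positive with receptor centring. None had an unadjusted limma p under 0.05. Aldh3a2, the fatty aldehyde dehydrogenase, differed by 0.06 (SE 0.136) and the mitochondrial Aldh2 by 0.06 (SE 0.284). Aldh5a1, which oxidises succinic semialdehyde, read 8.18, 8.17, 7.59 and 8.05 with undecanal against 7.90, 7.36, 7.65 and 7.42 with vehicle, a difference of 0.41 (SE 0.198) with overlap.

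Olfactory enzymes of xenobiotic metabolism had 15 of 17 positive differences with a median of 0.11, most of them between 0.01 and 0.20. Their mean level was 7.84 to 8.30 with undecanal and 7.41 to 8.16 with vehicle, and these ranges overlap. Many of these enzymes belong to sustentacular cells, the supporting cells of the epithelium. The 11 markers of those cells had mean levels of 6.60 to 7.36 with undecanal and 6.32 to 7.26 with vehicle. Cyp2g1, Cyp1a2 and Sult1c1 are in both lists, so the list levels are not separate readings. The part of those cells in the enzyme levels was not tested. The 1 member at an unadjusted limma p under 0.05 was Ugt2a3, a glucuronosyltransferase, at 0.74 (SE 0.163) with both means below background. Oxidative stress genes had a median of 0.08 over 12 members, with Gclc, the rate-limiting enzyme of glutathione synthesis, at 0.27 (SE 0.190) and Nqo1 at 0.10.

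Marker lists of other cell types had medians between -0.16 and 0.06, against 0.004 over all probe sets. The lowest were -0.16 for neutrophils, -0.13 for lymphocytes, -0.12 for the 2 measured erythroid genes and -0.10 for respiratory ciliated cells. The median was 0.06 for immature neurons, with 10 of 12 genes positive, -0.06 for neurogenic progenitors and cell cycle genes, 0.01 for sustentacular cells and 0.06 for microvillar cells. The progenitor median turned positive with receptor centring and the sustentacular median negative with quantile normalization. Bowman gland genes had a median of -0.02 with members that disagreed. Bpifb3, a secreted gland protein, read 8.72, 8.77, 8.67 and 9.09 with undecanal and 8.20, 8.07, 8.44 and 8.20 with vehicle. The groups did not overlap, and the difference was 0.58 (SE 0.395). The SDs of these groups were 0.19 and 0.16. The SE also carries the wider spread in arrays titled GFP+, where vehicle arrays read 9.82 to 12.24. The odorant binding protein Obp2a was at -0.82 (SE 0.687) with overlapping groups. Gnai2, a G protein subunit of vomeronasal neurons that other cells also express, differed by 0.59 (SE 0.256). It averaged 7.01 with undecanal and 6.41 with vehicle, and 12.10 and 12.14 in arrays titled GFP+.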

How the data were processed

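Each deposited value is a log2 summary of a Clariom S probe set. Per the submitters' processing notes the authors made these values in Affymetrix Expression Console. Not given in the sources used here were its algorithm, its version and the build of the annotation. The values were analysed as deposited. Of 28846 values per array, 6640 controls were left out; 19572 of the 22206 probe sets tested had 1 gene, and all matched RefSeq GRCm38.p6. A gene with several probe sets (55 genes) is represented by the one with the highest mean. Groups followed the titles. With limma 3.58.1 (lmFit, eBayes; R 4.3.3), 4 group means were estimated from all 16 arrays. P-values were adjusted over the 22206 probe sets by the Benjamini-Hochberg method, at 0.05, and the fit was checked on simulated data. Depth is not defined for arrays; their number limits precision.

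Named genes were, above background, the 6 receptors and 8 other named genes of smallest p per direction, up to 2 members per gene list, and S100a5, Omp, Pcdh10, Olfr1095, Olfr1535 and Cd44. Members, lists and this rule were chosen with earlier results of these data known. Lists are described by counts and medians, without tests. Receptor relatives were taken from RefSeq family names (1071 of 1091 receptors had one), in place of a planned protein comparison. Alternatives covered scaling, dim probe sets, the prior, weights, blocks and each pool left out. Same-numbered pools of the 2 agents are different mice.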

Additional observations from a re-analysis of the deposited data

Results flagged for a closer look

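In 162 groups of 4 arrays titled GFP- (81 named genes, 2 agents), 7 single values stood apart from the other 3 of their group by Dixon's criterion, where chance alone marks about 1 group in 20. Undecanal replicate 4 gave 3 of them: Aprt at 5.07 (others 5.53 to 5.55), Olfr1019 at 5.79 (others 7.77 to 7.97) and Kcnk10, a potassium channel gene of mature neurons, at 13.55 (others 14.30 to 14.40). Vehicle replicate 3 gave Lrp1 at 4.38 (others 4.95 to 5.01) and Taar7d at 8.02 (others 8.98 to 9.08). Vehicle replicate 1 gave Olfr923 at 7.68 (others 8.90 to 9.03), and vehicle replicate 2 gave Omp at 18.71, a small step from the 18.87 of the others.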

How the results depend on the processing

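The count of probe sets past an adjusted limma p of 0.05 was 0 under all 18 alternatives. At an unadjusted p under 0.05 the count was 500 with dim probe sets left out (253 higher, 247 lower; 914, 473 and 441 as reported) and 820 to 1110 with 1 pool left out. Receptor centring gave 543 higher (86.2%) and 87 lower, and mature neuron centring 539 (62.9%) and 318. Groups did not overlap for 279 probe sets with receptor centring and 289 without dim probe sets. Receptors at that p numbered 24 higher and 29 lower with receptor centring, and 11 to 27 higher and 37 to 84 lower with 1 pool left out. The replicate number as a block gave 871 probe sets, 0 of them past adjustment. It gave 27 receptors higher and 106 lower, beside 15 and 53 as reported. Those numbers do not pair mice. Deviations of same-numbered arrays correlated with r of 0.217, -0.042, 0.063 and -0.001, and those of differently numbered arrays with -0.193 to 0.133. Of 8 arrays, 4 correlated best with their own number. Whether a number marks any other shared condition was not tested. No sign changed among the 28 receptors and other genes named above background for the smallest p per direction, a choice that favours stable signs. Precision is limited by 4 pools per group and by levels near background. Any signal shared between close receptors was not measured.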
